A study of Mus musculus with 4 samples.

Results

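Complement transcripts were measured by single-cell RNA sequencing (scRNA-seq) in subcutaneous LLC tumors, which grow from the mouse Lewis lung carcinoma cell line. The 9 genes were C1qa, C1qb, C1qc, C3, C4b, Cfb, Cfp, C3ar1 and Cd55, matched by symbol in the feature table of every library, out of 18605 genes that all 4 libraries list. They were selected on their measured levels by cell type in untreated and irradiated tumors, so the levels and the differences between groups are given as a description and none of them was tested. Female C57BL/6N mice (written C57/BL6N in the sample labels) of 6 to 8 weeks received LLC cells under the skin. Radiotherapy (RT) was represented by 3 libraries, numbered RT1 to RT3, from tumors given 24 Gy as 3 fractions of 8 Gy on days 7 to 9, once they averaged 100 mm3, and the radiation naive group (NT) was mock treated. All cells were taken 72 h after treatment from whole dissociated tumors with no sort for any cell type. NT was 1 library in which 3 tumors were pooled, so it has no replicate, no p-value was computed for RT against NT, and the spread between untreated tumors is unknown. Every mouse carried the same transplanted line, so the tumor cells are those of 1 line only.

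The complement system is a cascade of plasma and surface proteins that tags cells and debris for uptake, attracts leukocytes and can lyse membranes. In the classical pathway C1q, which is built of A, B and C chains in equal number, binds its target and leads to cleavage of C4 and C3, whereas factor B and properdin build and hold the C3 convertase of the alternative pathway. The C3a fragment signals through its receptor on myeloid cells, and CD55 on host cells speeds the decay of C3 convertases. Liver makes most plasma complement, but in solid tumors macrophages are known as the main source of C1q, and fibroblasts and tumor cells can make C3.

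The libraries held 69667759 (NT), 78585759 (RT1), 108699844 (RT2) and 85660188 (RT3) unique molecular identifiers (UMIs, each standing for 1 captured transcript). After filtering, 9976 NT, 15029 RT1, 14993 RT2 and 15060 RT3 cells were kept, with medians of 5709, 3864, 5200 and 4158 UMIs. RT2 stood apart in its processing: its table lists only 18605 genes and holds no cell above 11.95% mitochondrial UMIs, and its macrophages were also the deepest, with a median of 4803 UMIs against 3207 in NT, 2965.5 in RT1 and 2482 in RT3. Between 175 and 274 cell barcodes were shared by each pair of libraries, at most 1.83% of a library. Clustering without any complement or interferon-induced gene gave 6392 macrophages (620 NT, 2232 RT1, 2189 RT2 and 1351 RT3), 6000 monocytes, 23850 tumor cells, 1718 lymphocytes and 430 fibroblasts, of which only 18 were in NT. All 9 macrophage markers, all 7 fibroblast markers, all 7 monocyte markers and all 8 lymphocyte markers were highest in their own type, as were 5 of 7 tumor cell markers, with Krt18 and Ccnd1 as the exceptions. A further 8212 cells led by Dpt and Lum carried the tumor marker Rhox5 at the level of tumor cells and were left unnamed. Also set apart were 5849 cells of low depth (shallow) and 1204 myeloid cells led by genes of other types (mixed). Of the C1qb UMIs of a library, shallow cells held 3.59% to 5.55% and mixed cells 4.50% to 7.79%.

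Levels are given in CPM, the UMIs of a gene per 1000000 UMIs summed over the cells of a type in a library. Ratios of RT to NT are log2 of CPM, given as mean ± SD over the 3 RT libraries, and 95% intervals cover counting error only. Of the 9 genes, 7 had their highest mean level over the 4 libraries in macrophages among the types with at least 20 UMIs in every library. These were the 3 C1q chains, Cfp, C3ar1, Cfb and C4b. C3 was highest in fibroblasts and Cd55 in lymphocytes. C4b and Cd55 each met the UMI minimum in 1 type only, so no other type was compared for them. For each C1q chain the level was higher in macrophages than in monocytes, and in monocytes than in any further named type, in all 4 libraries. These ranges did not overlap, whereas those of the types further down did. The shallow cells, which have no single type, were above monocytes in some RT libraries, with C1qb at 1093 CPM against 898 in RT1. For C3 the fibroblast range lay above all others, and macrophages, monocytes, neutrophils and tumor cells overlapped. Dropping the UMI minimum, C4b, Cfb and Cd55 had a higher mean over the 4 libraries in fibroblasts than in any other named type, but NT fibroblasts held only 6, 18 and 2 UMIs of them. The plot of levels by cell type shows the C1q chains, Cfp and C3ar1 highest in macrophages, and C3 and C4b highest in fibroblasts in all 4 libraries.

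**Figure D1:**
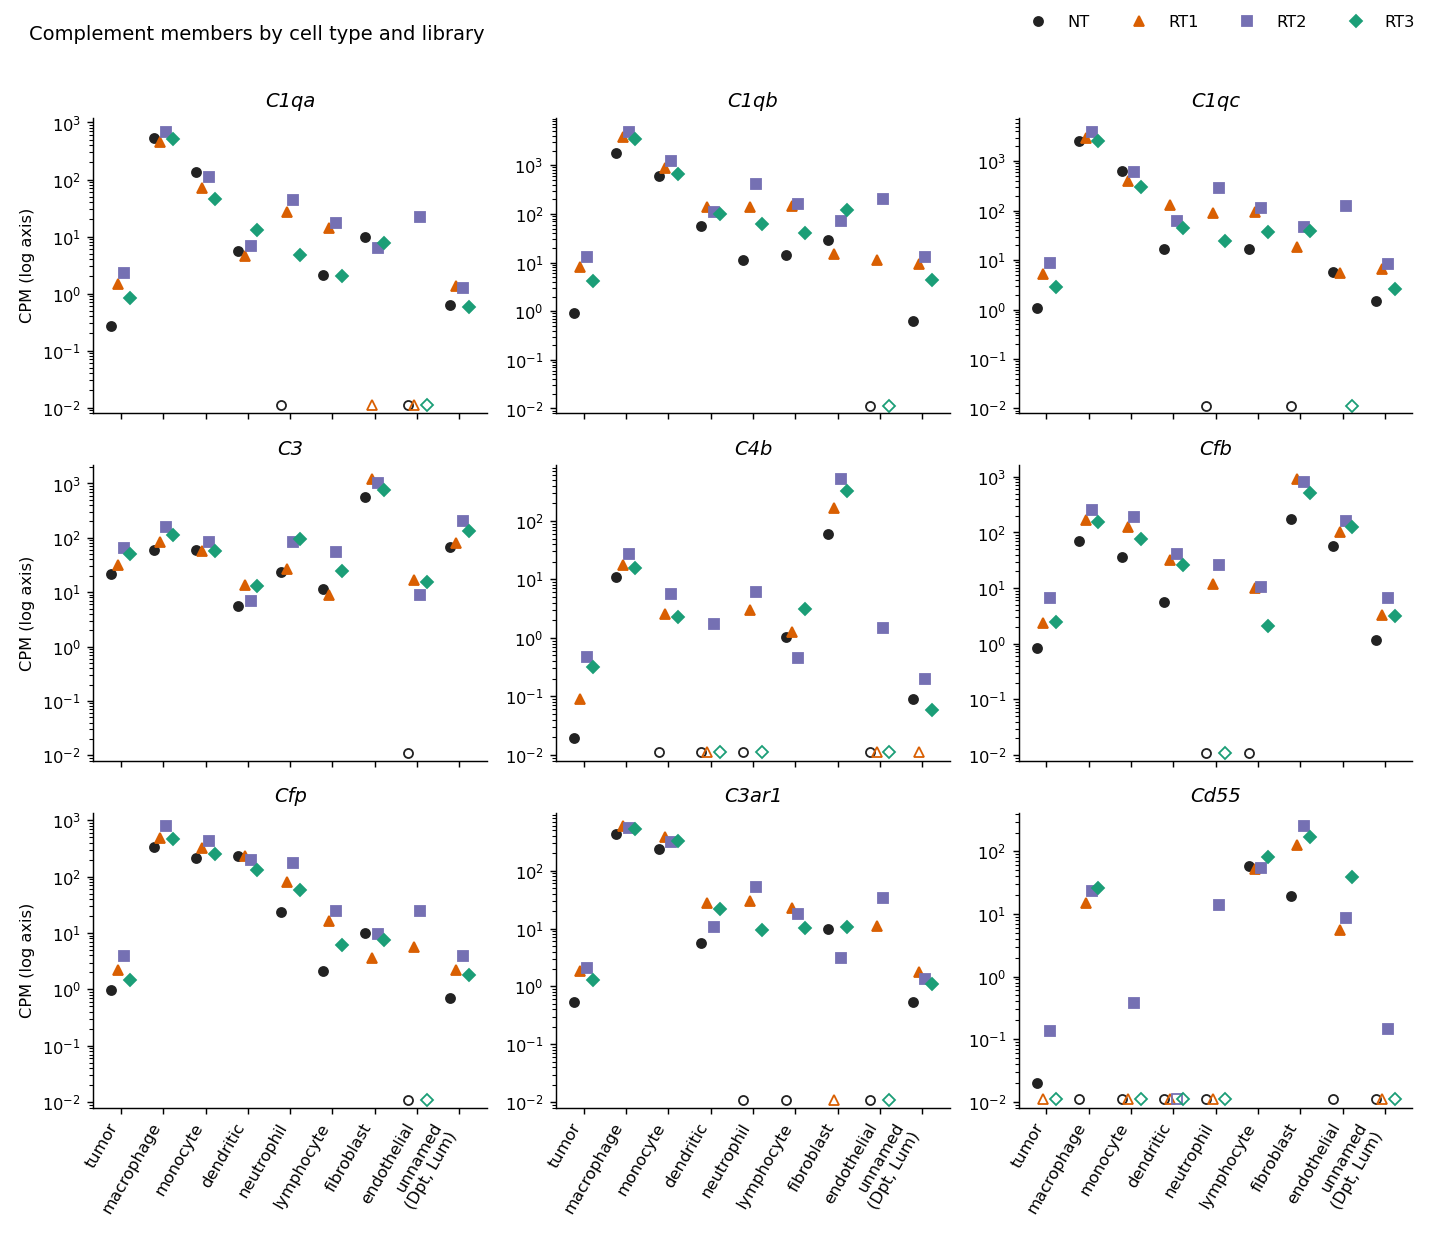
Level of each complement gene (CPM on a log axis, 1 panel per gene) in each cell type, with 1 symbol per library, and an open symbol at the bottom where no UMI was counted. The C1q chains stand highest in macrophages in all 4 libraries, while C3 stands highest in fibroblasts in all 4.

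The 3 C1q genes encode the chains of 1 protein, yet their levels did not move together between NT and RT. C1qb in macrophages was 1815 CPM in NT, 3768 in RT1, 4869 in RT2 and 3537 in RT3. All 3 RT libraries lay above NT, with an RT mean of 4058 ± 712 CPM (SD, n = 3) and a log2 ratio to NT of 1.15 ± 0.24. C1qc was 2556 CPM in NT against 2994, 3939 and 2594 in RT1, RT2 and RT3, so that RT3 lay just above NT and the mean log2 ratio was 0.29 ± 0.31. C1qa was 543 CPM in NT against 459, 687 and 520.3, straddling NT with a mean log2 ratio of 0.01 ± 0.30. For C1qc and C1qa the mean difference from NT was thus no larger than the SD between the RT libraries, whereas for C1qb it was larger than that SD.

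The ratio of C1qb to C1qc UMIs is free of the total count of a library, although it is not a ratio of transcript abundance, because capture differs between genes. In macrophages it was 0.71 in NT against 1.26, 1.24 and 1.36 in RT1, RT2 and RT3, a log2 difference of 0.86 ± 0.08 (SD, n = 3). Monocytes, in which all 3 chains were lower than in macrophages in every library, had a ratio of 0.96 in NT and 2.29, 2.09 and 2.20 in RT. The ratio of C1qa to C1qb in macrophages was 0.30 in NT and 0.12, 0.14 and 0.15 in RT, so C1qb moved against both other chains. Sub-clusters of the macrophages gave the same picture with 1 exception, which the plot of chain ratios shows. In sub-cluster 0, led by Cd209f, Lyve1 and Cbr2, the C1qb to C1qc ratio was 0.66 in NT and 1.31, 1.27 and 1.46 in RT. In sub-cluster 3, led by Ifnb1, Vcam1 and Calhm6, it was 0.68 in NT and 1.23, 1.23 and 1.36 in RT. In sub-cluster 9, led by Cma1, Crip1 and Cd52, it was 0.80 in NT and 0.77, 0.91 and 0.85 in RT, straddling NT. The 10 leading genes of this sub-cluster also held Mcpt4, a mast cell protease like Cma1, and none of the 9 macrophage markers. All 9 were above the middle of their range, but that range was taken over the clusters of all cells, tumor cells included. C1qb itself followed the same split. It was 1706 CPM in NT and 3875, 5103 and 3910.3 in RT in sub-cluster 0, but 2579 in NT and 2898, 3199 and 2293 in RT in sub-cluster 9. The difference between sub-clusters was not tested, since NT is 1 library.

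**Figure D2:**
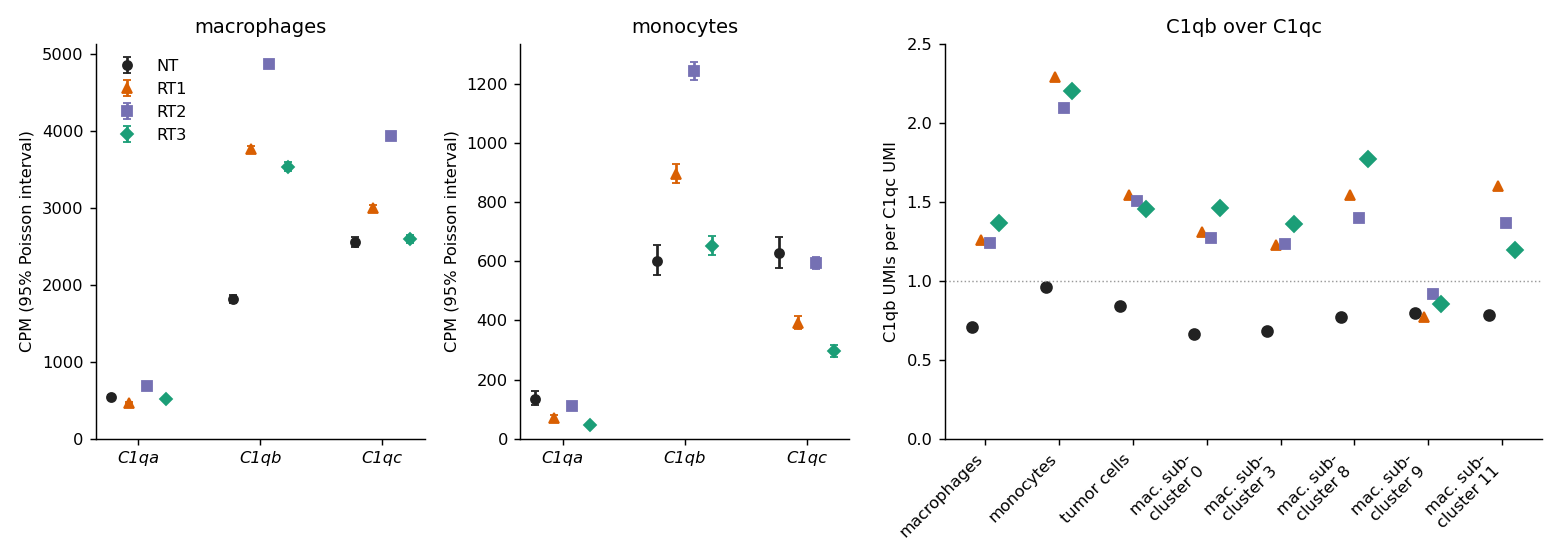
Levels of the C1q chains in macrophages and in monocytes (CPM with 95% Poisson intervals, 2 left panels) and C1qb UMIs per C1qc UMI (right panel), with 1 symbol per library and a dotted line at 1. In the right panel NT lies below the 3 RT libraries in each group except sub-cluster 9, where NT at 0.80 lies between RT1 at 0.77 and RT3 at 0.85.

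C1qb and C1qc lie on the minus strand of chromosome 4, and the 250 bases before each start site are shown because these neighbors diverged. Capitals mark matches to GAGGAA or its reverse complement TTCCTC, the core of sites bound by PU.1, a transcription factor of myeloid cells. The sequences are from RefSeq (GRCm38.p6) on the gene's strand, at chr4:136886201-136886450 for C1qb and chr4:136892915-136893164 for C1qc.
C1qb: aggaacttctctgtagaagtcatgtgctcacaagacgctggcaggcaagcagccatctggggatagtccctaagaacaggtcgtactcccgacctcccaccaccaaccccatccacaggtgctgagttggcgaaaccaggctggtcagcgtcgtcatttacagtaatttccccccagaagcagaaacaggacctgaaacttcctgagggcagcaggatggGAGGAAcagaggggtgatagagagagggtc
C1qc: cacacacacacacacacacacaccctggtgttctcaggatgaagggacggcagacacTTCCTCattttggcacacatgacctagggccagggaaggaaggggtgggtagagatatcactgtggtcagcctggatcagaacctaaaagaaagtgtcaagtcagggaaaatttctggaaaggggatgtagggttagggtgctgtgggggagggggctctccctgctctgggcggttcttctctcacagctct
The C1qb match starts 30 bases before the start site and the C1qc match 193 bases before it. Of 32851 promoter windows of the same length, 23.3% held GAGGAA on either strand, so a match in both is a description of these windows and not a sign of binding. C1qa had no window in the table.

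The share of macrophages with at least 1 C1qb UMI was compared after thinning each cell to 1000 UMIs and leaving out shallower cells. It was 66.7% in NT against 88.6%, 89.7% and 77.8% in RT1, RT2 and RT3. Without thinning it was 82.9% in NT and 91.8%, 91.2% and 79.3% in RT, so RT3 was then below NT. For C1qa the thinned share was 33.8% in NT and 31.6%, 44.8% and 32.8% in RT, again on both sides. In tumor cells, which should lack C1q, the thinned share with a C1qb UMI was 0.16% in NT and 0.86%, 1.71% and 0.51% in RT, far below macrophages of the same library. The level of C1qb in tumor cells was 0.051%, 0.212%, 0.264% and 0.120% of that in macrophages of the same library (NT, RT1, RT2, RT3), beside medians of 0.054%, 0.254%, 0.259% and 0.135% for the 9 macrophage markers. These shares are of like size, the source of the C1q UMIs in tumor cells was not tested, and no expression is read from them. Macrophages made up 6.21% of kept cells in NT and 14.9%, 14.6% and 8.97% in RT, and they held between 76.6% and 82.0% of all C1qa, C1qb and C1qc UMIs in each library.

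Monocytes gave a different direction for 2 of the chains. C1qa in monocytes was 136 CPM in NT and 69.7, 109 and 45.4 in RT, and C1qc was 629 in NT and 391, 595 and 297 in RT, with every RT library below NT. C1qb was 603 CPM in NT and 898, 1244 and 653 in RT, with every RT library above it. Sub-clusters of the monocytes differed for C1qc. In sub-cluster 1, the largest, it was 898 CPM in NT against 492, 899 and 503, and in sub-cluster 5 it was 328 in NT against 388, 619 and 285, both straddling NT. In sub-cluster 2 it was 132 in NT against 49.0, 74.0 and 29.0. Over all monocytes the mean log2 ratios were -0.95 ± 0.63 for C1qa, -0.62 ± 0.50 for C1qc and 0.58 ± 0.46 for C1qb.

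C3, the protein on which all complement pathways converge, had its highest level in fibroblasts, but most of its UMIs in NT came from tumor cells and the unnamed cells. In fibroblasts it was 571 CPM in NT (58 UMIs in 18 cells, exact Poisson 95% interval 434 to 739) against 1203, 1017 and 758 in the RT libraries. All 3 RT libraries were above the NT interval, with a mean log2 ratio of 0.77 ± 0.34. Averaged over single cells in place of summed UMIs this log2 ratio was 1.89, and after removing the 8% of cells scored most like doublets it was 0.49 ± 0.42. In tumor cells C3 was 21.9 CPM in NT and 31.6, 65.0 and 49.8 in RT, a log2 ratio of 1.09 ± 0.53, so the spread between RT libraries was large beside the difference. In macrophages it was 58.6 CPM in NT and 82.9, 158 and 113 in RT, whereas in monocytes it was 58.9 in NT and 57.2, 84.5 and 56.5 in RT, on both sides of NT. Tumor cells held 50.7% of all C3 UMIs in NT and 34.1%, 32.1% and 41.2% in RT, and the unnamed Dpt and Lum cells held another 34.5% in NT. C3 in tumor cells was 37.3% to 44.0% of its level in macrophages of the same library, far above the share of the macrophage markers given above. Among the tumor cell clusters the level was lowest in cluster 0, led by the cell cycle genes Cdk1 and Birc5, at 3.68 CPM in NT and 7.77, 9.83 and 11.7 in RT. Cluster 3, led by the cell cycle genes Cenpf and Nuf2, was higher, with 16.7 CPM in NT and 32.9, 56.9 and 41.5 in RT.

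**Figure D3:**
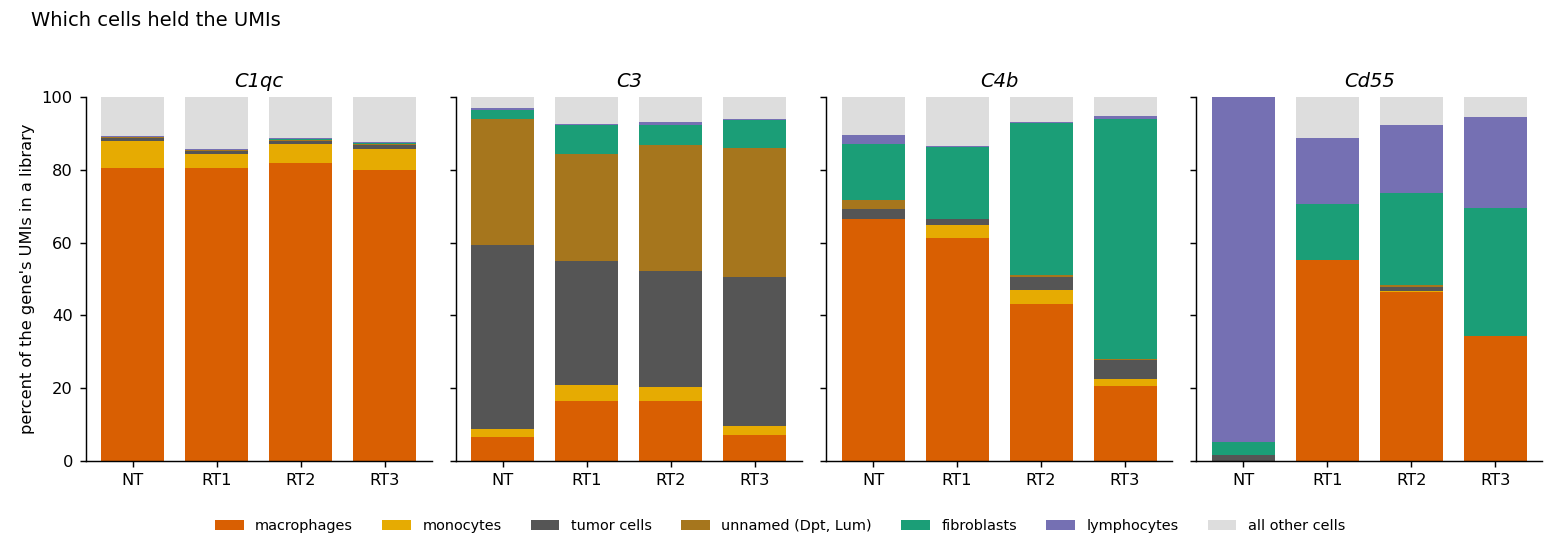
Share of the UMIs of C1qc, C3, C4b and Cd55 (percent of the gene's UMIs in a library, stacked bars) by cell type, with 1 bar per library. Macrophages hold 80.0% to 82.0% of C1qc, tumor cells and the unnamed cells hold most of C3, and the lymphocyte share of Cd55 is 94.9% in NT and at most 25.1% in RT.

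Cfb encodes factor B, the protease subunit of the alternative pathway convertase. Its level in macrophages was 69.0 CPM in NT (166 UMIs, exact Poisson 95% interval 58.9 to 80.4) and 169, 256 and 151 in RT, and every RT library was at least 2-fold higher. The mean log2 ratio was 1.44 ± 0.40. Monocytes gave 36.7 CPM in NT (33 UMIs) and 125, 190.4 and 76.8 in RT, also at least 2-fold higher in each. In fibroblasts Cfb was 177 CPM in NT (18 UMIs) and 908, 813 and 504 in RT, a log2 ratio of 2.02 ± 0.45. The median log2 scaling factor of RT against NT was -0.29 in fibroblasts and -0.11 in lymphocytes, so ratios in these types are higher by that much when scaled on the median gene. Within macrophages the highest RT levels were in sub-cluster 3, with 90.4 CPM in NT and 309, 363 and 285 in RT, against 52.7 in NT and 113, 200 and 96.9 in RT in sub-cluster 0. Sub-cluster 5 of the monocytes, led by Ifit1bl1, had 153 CPM in NT (21 UMIs) and 339, 409 and 172 in RT. Endothelial cells held few Cfb UMIs in NT, 10 at 56.6 CPM, and had 103, 161 and 125 CPM in RT. In the same macrophages 17 interferon-induced genes had median log2 ratios of -0.64, -0.09 and 0.08 in RT1, RT2 and RT3. Of these 17 genes, 7 had every RT library above NT and 8 had every RT library below it. Their summed level, led by Cxcl10, was 9134 CPM in NT and 4086, 5176 and 7065 in RT. The sum was thus lower in every RT library while Cfb was higher, and its part in the result was not tested.

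C4b encodes C4, which is cleaved when C1q binds. In mice C4a is a near-identical copy, so reads could be split between both and C4b is given as uncertain. In macrophages C4b was 10.8 CPM in NT from only 26 UMIs, and 17.6, 27.3 and 15.9 in RT, a log2 ratio of 0.86 ± 0.42. Without sub-clusters 9 and 11 it was 0.37. In sub-cluster 9 it was 20.1 CPM in NT (6 UMIs) and 123, 96.0 and 62.6 in RT, while in sub-cluster 0 it was 15.4 in NT and 13.3, 24.8 and 13.1 in RT, on both sides. Fibroblasts had 59.1 CPM in NT, again from 6 UMIs, and 169, 519 and 321 in RT. The fibroblast share of all C4b UMIs was 15.4% in NT and 19.7%, 42.0% and 65.9% in RT, next to a fibroblast share of cells of 0.18% and 0.62%, 0.88% and 1.24%.

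Cfp encodes properdin, which stabilizes the alternative convertase. In macrophages it was 336 CPM in NT against 474, 771 and 455 in RT1, RT2 and RT3, every RT library above NT, with a mean log2 ratio of 0.71 ± 0.42, or 0.47 without RT2. In monocytes it was 211 CPM in NT and 319, 425 and 249 in RT. Dendritic cells were the exception, with 233.3 CPM in NT and 233.4, 195 and 128 in RT.

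C3ar1 encodes the receptor for C3a. Its level in macrophages was 434 CPM in NT and 579.8, 549 and 528 in RT, a log2 ratio of 0.35 ± 0.07, which was the smallest spread between RT libraries among the genes highest in macrophages. In monocytes it was 237 CPM in NT and 377, 318 and 323 in RT. In sub-cluster 0 RT libraries lay on both sides of NT, at 609 CPM in NT and 606, 626 and 597 in RT. All 3 lay above NT in sub-cluster 3, at 338 in NT and 547, 503 and 493 in RT, and in sub-cluster 9, at 231 in NT and 466, 419 and 405 in RT. Sub-cluster 8, at 636 in NT against 671, 564 and 461, and sub-cluster 11, at 398 in NT against 369, 262 and 447, also straddled NT. With sub-clusters weighted alike in every library the log2 ratio was 0.19. Sub-cluster 0 made up 31.0% of NT macrophages and 53.4%, 45.1% and 44.5% of RT macrophages.

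Cd55, the membrane regulator, had no UMI in NT macrophages and was 15.2, 23.6 and 26.0 CPM in RT1, RT2 and RT3. Against the floor of 3 UMIs in NT, 1.25 CPM, these were at least 12.2-fold, 18.9-fold and 20.8-fold higher. A UMI was counted in 0 of 620 NT macrophages, which allows a share of up to 0.484% (3 of 620), and in 80 of 2232 RT1, 142 of 2189 RT2 and 53 of 1351 RT3 macrophages. Those shares, 3.58%, 6.49% and 3.92%, were low in every RT library. Tumor cells of the same libraries, which should have little Cd55, had at most 0.14 CPM.
The 250 bases before its start site (RefSeq, GRCm38.p6, minus strand, chr1:130462745-130462994) are shown because this gene was at 0 in NT macrophages, with a match to an NF-kB type motif (GGGAA, any 3 bases, then CC) in capitals 61 bases before the start.
Cd55: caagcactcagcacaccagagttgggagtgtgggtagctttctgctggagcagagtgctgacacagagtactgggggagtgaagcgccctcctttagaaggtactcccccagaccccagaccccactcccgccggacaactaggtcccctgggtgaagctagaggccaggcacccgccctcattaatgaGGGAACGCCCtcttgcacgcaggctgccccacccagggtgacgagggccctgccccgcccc
The motif was present in 4.94% of the 32851 windows on either strand. Its match here is a description of this window and not a sign of binding. Other motif types were also searched, and none of them matched in this window. Lymphocytes were the type with the most Cd55 in NT, at 58.3 CPM, and had 52.2, 54.3 and 80.8 in RT, on both sides of NT with a mean log2 ratio of 0.07 ± 0.35. In RT the UMIs of Cd55 were spread over more types: lymphocytes held 94.9% of them in NT and 18.2%, 18.7% and 25.1% in RT, and macrophages 0% in NT and 55.1%, 46.3% and 34.3% in RT. NT held only 59 Cd55 UMIs in all, and the 95% interval of its lymphocyte share was 85.9% to 98.9%. Within macrophages Cd55 was highest in sub-cluster 0, with 20.2, 32.1 and 42.4 CPM in RT. Cd55 is itself among the leading genes of that sub-cluster, although it was left out of the clustering. Fibroblasts had 19.7 CPM in NT, from 2 UMIs in 1 cell, and 129, 251 and 169 in RT. The ratios to NT were 6.53 (95% interval 1.68 to 56.1), 12.7 (3.46 to 106) and 8.57 (2.32 to 71.7), so the size of this difference is poorly fixed.

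Over the 9 genes in macrophages, 8 had every RT library above NT and C1qa had RT libraries on both sides. Of 8697 genes counted in this type 33.9% had every RT library above NT. Cfb and Cd55 were at least 2-fold higher in every RT library, against 3.08% of all genes, and Cd55 entered the count only through its RT UMIs. The median log2 ratio of the 9 was 0.86, beside 0.00 over all genes. C1qb missed the 2-fold mark in RT3, at a log2 ratio of 0.96. In monocytes 7 genes had enough UMIs, of which 4 lay above NT and 2 below in every RT library, against 42.9% and 23.1% of all genes, and Cfb alone was at least 2-fold higher, against 5.12%. In fibroblasts all 4 genes with enough UMIs lay above NT, against 39.2% of all genes, and C4b, Cfb and Cd55 were at least 2-fold higher, against 10.9%, but these 3 entered the count only through their RT UMIs. In tumor cells 7 of 7 lay above NT, against 30.2%, and 5 were at least 2-fold higher, against 2.52%. C1qa entered only through its RT UMIs, and these 5 include the C1q chains and C3ar1, whose levels in tumor cells were within the range of the macrophage markers as a share of macrophage levels. In lymphocytes C1qb and C1qc were at least 2-fold higher in every RT library, against 1.64%, though both entered only through their RT UMIs, and Cd55 lay on both sides of NT. As a share of the macrophage level (NT, RT1, RT2, RT3), lymphocytes had 0.80%, 3.85%, 3.21% and 1.16% of C1qb and 0.65%, 3.11%, 2.92% and 1.46% of C1qc, beside medians of 0.86%, 3.94%, 2.75% and 1.74% for the macrophage markers. The source of these UMIs was not tested. Since these genes were chosen with these values known, nothing is read from the counts. The plot of RT over NT shows the values.

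**Figure D4:**
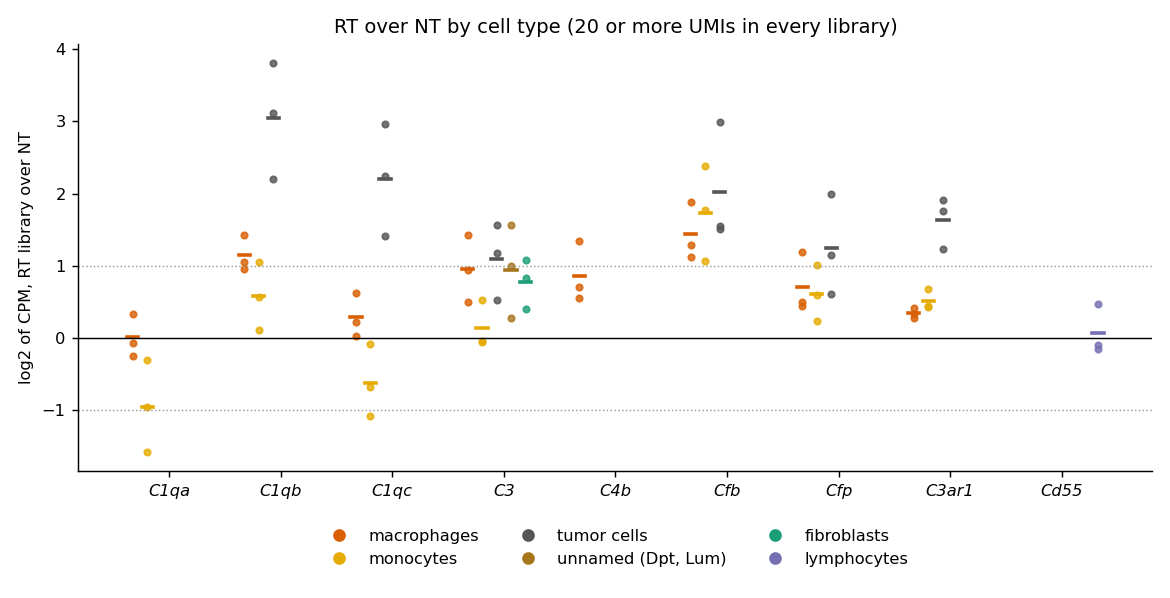
Log2 ratio of the CPM of each RT library to NT (1 dot per RT library, a bar at the mean) for each gene in the cell types with 20 or more UMIs in every library, with dotted lines at 2-fold. In macrophages Cfb at 1.44 and C1qb at 1.15 have the highest means and C1qa lies around 0, and C1qa and C1qc lie below 0 in monocytes.

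Rhox5, a tumor cell transcript, was at 26.6 CPM in NT macrophages and 41.4, 29.1 and 45.2 in RT, which is 2.36% to 3.70% of its level in tumor cells, and its part in the results was not tested. In fibroblasts it was higher, at 128 CPM in NT and 221, 249 and 265 in RT, and in lymphocytes it was 333 in NT and 268, 218 and 334 in RT. Among the named types other than tumor cells it was highest in neutrophils, at 1050 in NT and 693, 566 and 718 in RT.

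Of 53 other complement genes listed by role, 40 were in the tables. In macrophages 18 had enough UMIs, 10 of them above NT in every RT library and 6 below (33.3% of all genes lay below), where C1s1 and Vsig4 entered only through their RT UMIs, with a median log2 ratio of 0.43. None was at least 2-fold higher in every RT library, and Itgax, a subunit of complement receptor 4, was at least 2-fold lower, against 2.79% of all genes, at 126 CPM in NT and 35.8, 22.7 and 37.5 in RT. C5ar1, the receptor for C5a, was 1040 CPM in NT macrophages and 1022, 824 and 837 in RT, below NT in each, unlike C3ar1. In fibroblasts, C1s1, the C1s protease, was 965 CPM in NT and 1420, 1166 and 1275 in RT. Serping1, the C1 inhibitor, was 1507 in NT and 3196, 3848 and 2839 in RT. Masp1, a lectin pathway protease, was 49.3 CPM in NT fibroblasts (5 UMIs) and 184, 104 and 332 in RT, and Ptx3, a pattern recognition protein that binds C1q, was 69.0 in NT (7 UMIs) and 522, 1408 and 842 in RT. Both were at least 2-fold higher in every RT library, as were 10.9% of all genes in fibroblasts, but they entered the count only through their RT UMIs. Cfd, factor D, the protease that cleaves factor B, was at 0 in NT fibroblasts and 1475, 14.2 and 244 in RT, a spread that leaves no common RT level. The floor of 3 UMIs in NT fibroblasts is 29.6 CPM, so RT2 lay below it and cannot be told from NT.

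Genes were ranked by their likeness to each of the 9, as Pearson r of log2(CPM + 1) over 32 sums of 8 cell types in 4 libraries. The other complement genes listed by role were left out of this ranking, so none of them could appear in it. The ranking is a description, since sums of 1 library share its depth and cells. For C1qa the 3 most alike were Adgre1 (r = 0.93), Nxpe5 and Ms4a14. For C1qb they were Ccl9 (r = 0.94), Mrc1 and Lyz2, and for C1qc Pf4 (r = 0.93), Adgre1 and Ms4a7. For Cfp they were Mpeg1 (r = 0.97), Clec4n and Pira2, and for C3ar1 Pf4 (r = 0.94), Adgre1 and Trem2. C3 was most like Saa3 (r = 0.88), Tnfaip6 and Prkar1b, and C4b most like Mmp27 (r = 0.91), Col14a1 and Saa3. Cfb was most like Armcx3 (r = 0.90), Lifr and Dram1, and Cd55 like Serpine2 (r = 0.83), Itm2a and Camk2n1. Among the 9 genes themselves r was 0.94 for C1qa with C1qb and with C3ar1, 0.93 for C1qb with C1qc and 0.90 for C1qb with Cfp. C3 and C4b, both highest in fibroblasts by mean, had r = 0.81, whereas Cd55 gave values near 0 with the C1q chains.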

How the data were processed

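Libraries were made with the SeekOne MM 3′ kit, sequenced on a NovaSeq instrument and counted with SeekOne Tools. The submitters' processing notes also name STAR 2.5.1b, Subread 1.6.4, featureCounts and Cell Ranger, with GRCm39 and mm39 as builds, without their roles. The deposited values are raw counts of UMIs per gene and cell, as the authors' tools gave them, in 1 table per library. The table of RT2 had been reduced to 18605 genes, and only those were used. The genes and lists were chosen with earlier results of these data known.

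Cells were kept at 200 or more detected genes and no more than 20% mitochondrial UMIs. Doublets were not removed in the main analysis. Counts were scaled to 10000 per cell and log transformed, and 2000 variable genes without complement or interferon genes, 30 principal components, Harmony (rewritten in Python, theta 2, lambda 1, sigma 0.1), 20 neighbors and Leiden clustering at resolution 0.8 gave the clusters (scanpy 1.11.5, leidenalg 0.10.2). Types were named from a marker list, with a scoring rule settled after looking at the clusterings, so names may differ from the study's. Macrophages, monocytes and dendritic cells were clustered again. UMIs were summed per library and type. A gene was counted with at least 20 UMIs in NT or in every RT library. At least 2-fold higher means in every RT library, and a sum of 0 was set to 3 UMIs. Intervals are exact Poisson or Clopper-Pearson at 95%, and the limit for a count of 0 is 3 counts. No test was run, and p-values were not computed, because NT is 1 library. The RT libraries are labelled as replicates, and the study describes them as individual samples. The named genes were the 9 genes and, for each, the 3 most alike over all sums among genes outside the complement lists. Other complement genes past 2-fold in a type where one of the 9 was highest, and the most abundant gene per role, were also named. Promoter windows are RefSeq GRCm38.p6, for 6 of 9 genes. C4b, C1s1 and Cd55 have close copies (C4a, C1s2, Cd55b), so their counts are uncertain where reads could be split. No gene coordinates of the files' build are given. Alternatives covered filters, doublets, resolution, naming, scaling, averaging, weighting and leaving out each RT library. The values of 1 further complement gene are not reported here.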

Additional observations from a re-analysis of the deposited data

Results flagged for a closer look

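C1qc, the C chain of C1q, with at least 20 UMIs in every library, had every RT library on one side of NT in 3 cell types, but not the same side. Its mean log2 ratio of RT to NT was 2.20 in tumor cells, 0.29 in macrophages and -0.62 in monocytes. In lymphocytes, with 16 UMIs in NT, it was 2.15. Within monocytes, RT values straddled NT in sub-clusters 1 and 5. The difference between these types was not tested, since NT is 1 library. In tumor cells the counts were at the share of macrophage levels that the macrophage markers also had.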

How the results depend on the processing

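Alternatives were run for the 9 genes in the type where each was highest, the C1qb to C1qc ratio in macrophages, shares of macrophages with a UMI and counts of genes, and among these no value changed sign by more than the spread between RT libraries. Values in other types and in sub-clusters had none. C3ar1 in macrophages, 0.35 on the log2 scale, was 0.28 at no more than 10% mitochondrial UMIs, 0.19 with sub-clusters weighted alike, 0.24 without sub-clusters 9 and 11 and 0.24 with the shallow and mixed myeloid cells added. Without sub-clusters 9 and 11, C4b was 0.37 and the C1qb to C1qc ratio 0.97. These 2 settings, without sub-clusters and with cells added, were chosen after seeing the data. The alternatives for the C1qb to C1qc ratio and for the count of the 9 genes above NT were not planned either. C3 in fibroblasts was 1.89 as a mean over cells and 0.49 after removing the 8% of cells scored most like doublets. The RT minus NT share of macrophages with a C1qb UMI was 18.6 percentage points at 1000 UMIs, 5.89 at 2000 and 4.50 unthinned, and for Cfb 9.10, 15.2 and 16.7. For C1qc it was 2.58, -1.12 and -1.22. C1qa in macrophages ranged from -0.13 to 0.16 over 12 alternatives and Cd55 in lymphocytes from -0.16 to 0.34 over 9. Of the 9 genes, 8 lay above NT in macrophages, or 7 with at least 500 detected genes or at resolution 1.5. Leaving out each RT library in turn gave -0.15 to 0.14 for C1qa, 1.01 to 1.24 for C1qb, 0.12 to 0.43 for C1qc, 0.62 to 0.95 for C3, 0.63 to 1.02 for C4b, 1.21 to 1.59 for Cfb, 0.47 to 0.85 for Cfp, 0.31 to 0.38 for C3ar1, -0.13 to 0.19 for Cd55 and 0.81 to 0.88 for the chain ratio. Genes at least 2-fold higher in macrophages numbered 268, or 475 and 109 with a minimum of 5 and 100 UMIs and 521 without RT3, and genes at least 2-fold lower numbered 243, or 389 and 83. In fibroblasts 241 were higher (604 and 50, and 512 without RT1) and 76 lower (376 and 14, 174 without RT1, and 43 scaled by the median ratio). In lymphocytes 100 were higher (254 and 31, and 240 without RT3) and 60 lower (195 and 6, and 98 to 123 with a library left out). No paired analysis was possible because NT is 1 library, so the groups share fewer than 2 replicate numbers. Low UMI sums limit C4b, Cfb, Cd55, Masp1 and Ptx3 in NT fibroblasts.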
